A study of Homo sapiens with 6 samples.

Results

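The CTCF sites described here were those listed only in senescent IMR90, a human lung fibroblast line. Peaks of the 3 CTCF lists on chromosomes 1 to 22 and X were merged where they overlapped by at least 1 bp, and a locus was chosen by which lists held a peak there, and kept when its only peak came from the senescent list. This gave 2750 of 9720 CTCF loci (28.3%, exact 95% interval 27.4 to 29.2), each of them a single peak, which are called senescent-only loci. Each list holds only the regions above its own threshold, so that a locus missing from a list may still have carried CTCF signal there.

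The study profiled CTCF and SMC1 by CUT&Tag, in which an antibody directs a transposase to the chromatin that its target occupies and the released DNA is sequenced. Both antibodies were used on control IMR90 of low passage, on low-passage IMR90 given ICM (inflachromene, a small molecule that binds HMGB proteins) and on high-passage IMR90 that had become senescent. There were 6 libraries with 1 library per group, so differences between conditions were described and not tested, and all intervals cover counting error only. The titles carry a p number of 21 for the CTCF control, 16 for the CTCF library of ICM-treated cells (6 days of ICM) and 34 for the senescent one. For SMC1 it was 16, 16 and 34, with no days of ICM given. No treatment stands in the titles of p number 34, which the series design identifies as the high-passage senescent sample. Senescence, passage, culture and library therefore cannot be told apart.

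CTCF is a zinc-finger protein that binds a long, partly conserved DNA motif and acts as an insulator. Cohesin, the ring-shaped complex that contains SMC1, extrudes chromatin loops and is often halted at CTCF sites bound in one orientation, so that many loop anchors carry both proteins. Nuclear loss of HMGB proteins is a known feature of senescent fibroblasts.

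Sequence was read only at promoters, for which RefSeq windows on GRCh38.p14 were at hand, each of 300 bases with 250 before and 50 after a 5′ end. Such a window held the summit of 134 senescent-only loci. A CTCF core of 12 bases, made of CCA, AG and GGC with any 2 bases between each and the next, was searched on both strands and was found in 14 of the 134 windows (10.4%, 5.83 to 16.9). The 4 of these 14 with the highest total signal and the one with the lowest are shown, to let the core be seen at strong and weak peaks alike. Each is 40 bases long and is written 5′ to 3′ on the strand of its gene, with the core in capitals.
CXXC1, chr18:50287754-50287793, minus strand: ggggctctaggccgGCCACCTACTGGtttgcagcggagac
COIL, chr17:56961098-56961137, minus strand: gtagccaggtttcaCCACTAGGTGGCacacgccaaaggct
MB, chr22:35623449-35623488, minus strand: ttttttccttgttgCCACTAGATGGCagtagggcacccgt
LINC01570, chr16:5616277-5616316, minus strand: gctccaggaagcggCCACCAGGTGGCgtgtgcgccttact
BDH2, chr4:103099938-103099977, minus strand: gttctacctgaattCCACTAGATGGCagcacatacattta

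The core at CXXC1, which encodes a CpG-binding subunit of a histone H3 lysine methyltransferase complex, lay on the opposite strand to the gene, with its centre 25.5 bp from the summit. The cores at COIL (coilin of Cajal bodies), MB (myoglobin), LINC01570 (a long non-coding RNA) and BDH2 (a hydroxybutyrate dehydrogenase) lay on the strand of the gene, between 32.5 and 67.5 bp from the summit. By total signal these 5 peaks ranked at percentiles 69.7, 49.003, 47.9, 45.7 and 2.02 of the senescent list. An SMC1 peak lay at CXXC1 in all 3 conditions and at MB in ICM-treated and senescent cells, and none was listed at COIL, LINC01570 or BDH2.

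The same core was present in 842 of all 34789 promoter windows (2.42%) and in 315 of the 9505 windows with 60 to 70% GC (3.31%). The GC content of the 134 windows had a median of 63.7%, against 58.7% over all windows. At CTCF loci found in all 3 lists, the core was in 87 of 722 windows (12.05%, 9.76 to 14.6), and at loci of the ICM and senescent lists it was in 22 of 146 (15.1%, 9.69 to 21.9). ICM-only loci had it in 11 of 257 windows (4.28%, 2.16 to 7.53). With a looser core, in which the A of CCA may be any base and which therefore includes every match of the first, 46 of the 134 windows matched (34.3%, 26.3 to 43.0), against 10.6% of all windows, 14.4% of those with 60 to 70% GC and 36.98% of those at loci in all 3 lists. The study describes a filter for CTCF motifs, and its filtered sets are only slightly shorter than the deposited CTCF lists. The peaks used here had therefore not passed that filter as a whole, though by number most could have. The shares given here count matches to the searched cores and are not shares of peaks with a CTCF motif by that filter. These windows concern promoters, which hold a small share of the senescent-only loci.

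For a promoter peak in which neither form of the core was found, the upstream region of FMO4 is given. FMO4 encodes a flavin-containing monooxygenase, and this was the third highest senescent-only peak at a protein-coding promoter. The 250 bases before its 5′ end are written on the strand of the gene, with no capitals because no core was matched. Only these forms of the core were searched, and a CTCF motif that departs from them would not have been marked. The FMO4 region holds such a near match. Its stretch gccctctacaga departs from the looser core, read on the opposite strand, only at the last base.
FMO4 upstream region, chr1:171313933-171314182, plus strand: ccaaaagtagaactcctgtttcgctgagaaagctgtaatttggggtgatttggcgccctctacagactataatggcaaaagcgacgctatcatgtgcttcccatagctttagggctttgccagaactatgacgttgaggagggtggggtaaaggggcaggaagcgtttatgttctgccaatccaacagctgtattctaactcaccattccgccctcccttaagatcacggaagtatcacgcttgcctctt

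The senescent-only loci were mostly weak entries of their own list. Total signal (coverage summed over the peak) ran from 6267 to 22842 with a median of 7942, and highest signal (the tallest point of the peak) ran from 8 to 213 with a median of 29. Widths ran from 127 to 3691 bp with a median of 920 bp. These values took part in choosing the loci and are given as a description. Ranked by total signal among the 8577 senescent peaks, the senescent-only loci had a median percentile of 24.97, with quartiles at 11.9 and 41.1, and 387 of them (14.1%) were in the upper 50% of the list. Only 19 were in the top 25%, and 0 were in the top 10%. By highest signal the median percentile was 35.2, and 13 were in the top 10%.

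The loci with a senescent peak were split into 10 bands of percentile by total signal, each locus placed by its senescent peak of highest total. Senescent-only loci made up 69.9% of the lowest band (percentiles 0 to 10), 40.6% between 40 and 50, 5.07% between 70 and 80 and 0.357% between 80 and 90. The 3 lists began at different signals. The lowest listed total was 6267 for senescent, 14246 for control and 20161 for ICM-treated cells, and whether these are on a common scale is unknown. Only 51 senescent-only loci (1.85%) reached the lowest control total and 2 reached the lowest ICM total, beside 2620 and 1246 of the 8577 senescent peaks. Each CTCF list was also limited to its 4673 peaks of highest total signal, and loci were merged anew. Then 916 loci had a peak from the senescent list only, with a median percentile of 56.7 in the complete senescent list. When the lists were limited by highest signal, there were 1073 such loci, with a median percentile of 42.7. A locus whose ICM peak fell below the cut then counted as senescent-only, so these sets can hold loci of other classes. The cut also took out senescent peaks of low signal, which raises the median percentile.

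**Figure D1:**
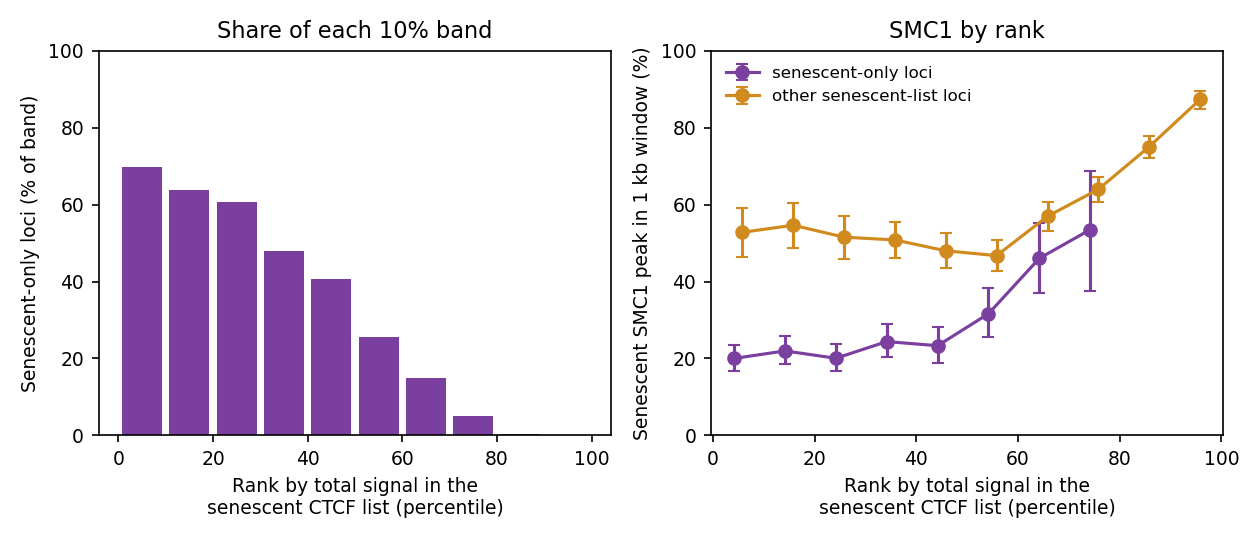
Left, bars give senescent-only loci as a percentage of the loci with a senescent peak in each of 10 bands of the senescent CTCF list, from the lowest total signal (left) to the highest (right). Right, points give the percentage with a senescent SMC1 peak in a 1 kb window on the summit, for senescent-only loci (purple, bands with at least 20 of them) and other senescent-list loci (orange), and bars are exact 95% intervals. Senescent-only loci fall from 69.9% of the lowest band to 0 in the highest, and their SMC1 shares lie below those of the other loci in all 8 bands drawn, with intervals that meet between percentiles 60 and 80.

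At the edge of the rule, few peaks lay close to changing sides. The closest senescent-only locus, chr19:999834-1000584 with a total signal of 6319, lay 51 bp from a peak of another list. The next were chr12:121624162-121625511 at 56 bp (total 11705) and chr19:6862548-6863142 at 66 bp (total 6366). Just on the other side, chr9:128124213-128126833 (total 12344) overlapped a peak of another list by 4 bp and chr5:140239196-140240856 (total 7921) by 61 bp. The next smallest overlap was 344 bp, at chr12:118182250-118182593 (total 6641), which lay wholly inside a peak of another list. In general the nearest peak of the control or ICM list lay at a median of 56213.5 bp from a senescent-only locus. The nearest locus in all 3 lists lay farther, at a median of 101530 bp from a senescent-only locus. It was 114036 bp for loci of the ICM and senescent lists, and 58181.5 bp between a locus in all 3 lists and the next of its class. A control or ICM peak lay within 1 kb of 72 senescent-only loci (2.62%) and within 10 kb of 525 (19.1%).

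The senescent-only loci were mostly distal. A promoter was called where the summit lay within 1 kb of an annotated 5′ end, which held for 259 senescent-only loci (9.42%, 8.35 to 10.6), against 27.0% of all 9720 CTCF loci. The share was 33.1% (31.6 to 34.5) at loci in all 3 lists, 18.1% (16.1 to 20.2) at loci of the ICM and senescent lists and 53.1% (49.8 to 56.4) at ICM-only loci. When peaks were merged by 100 bp summit windows instead, 16.7% of the senescent-only loci were at promoters, and with promoters reaching 2.5 kb the share was 14.2%. Away from promoters, 1133 (41.2% of all 2750) lay inside a protein-coding gene, 301 (10.9%) inside another gene and 1057 (38.4%) between genes. For loci in all 3 lists these shares were 32.8%, 7.60% and 26.6%. Loci of the ICM and senescent lists were closer, at 37.6%, 10.6% and 33.7%. At the 186 loci of the control and senescent lists the shares were 46.2%, 13.98% and 26.3%. The promoter share of those 186 loci was 13.4% (8.89 to 19.2), an interval that meets the one of senescent-only loci.

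The lower promoter share was also seen among peaks of like rank. In the lowest band of the senescent list 12.6% of senescent-only loci and 44.05% of other loci were at promoters, and between percentiles 50 and 60 the values were 6.51% and 21.9%. The median distance from summit to the nearest 5′ end was 15552.5 bp for senescent-only loci, 5620 bp for loci in all 3 lists, 13853.5 bp for those of the ICM and senescent lists and 635 bp for ICM-only loci. More than 10 kb separated 1713 senescent-only loci (62.3%) from any 5′ end, and more than 50 kb separated 495 (18%). These shares were 57.1% and 15.5% at loci of the ICM and senescent lists, and 41.2% and 9.91% at loci in all 3 lists. The nearest 5′ end belonged to a protein-coding gene for 1792 senescent-only loci (65.2%) and to a long non-coding RNA for 927 (33.7%), against 71.5% and 28.1% at loci in all 3 lists. A median of 3 genes started within 100 kb of a senescent-only locus, against 4 for loci in all 3 lists.

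**Figure D2:**
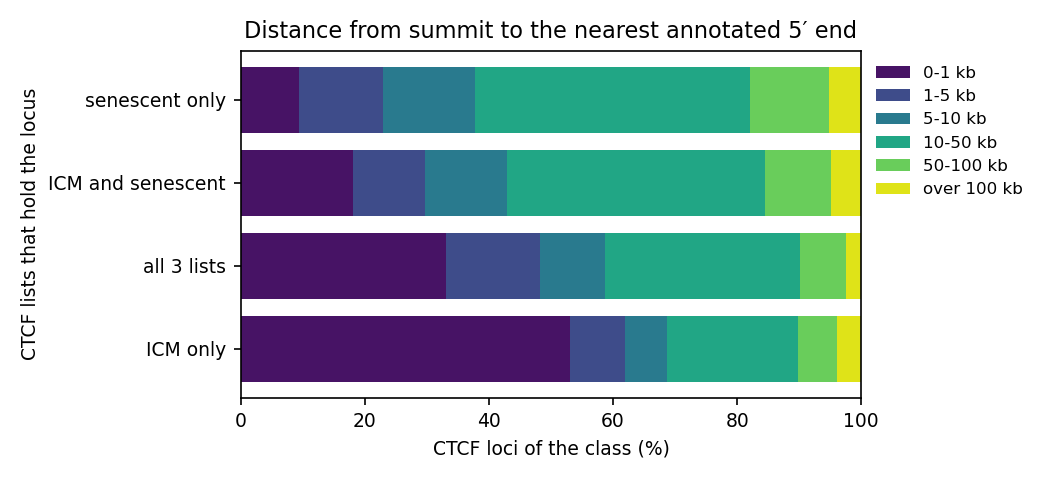
Bars divide the loci of each class (vertical axis, CTCF lists that hold the locus) by distance from the summit to the nearest annotated 5′ end, as a percentage of the class. The bin within 1 kb takes 9.42% of senescent-only loci, 18.1% of loci of the ICM and senescent lists, 33.1% of loci in all 3 lists and 53.1% of ICM-only loci.

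SMC1 peaks were listed at a minority of the senescent-only loci in each condition. The control SMC1 list had a peak at 590 of them (21.5%, 19.9 to 23.04, against 55.7% of all CTCF loci). The ICM list had one at 864 (31.4%, 29.7 to 33.2, against 60.3%), and the senescent list had one at 663 (24.1%, 22.5 to 25.8, against 52.1%). Among the 916 loci that were senescent-only in CTCF lists of equal length by total signal, the senescent SMC1 share was 37.7%. That set was merged anew and can hold loci that have an ICM peak in the complete lists. At loci in all 3 CTCF lists the shares were 77.2%, 77.8% and 71.4%, and at loci of the ICM and senescent lists they were 45.2%, 58.5% and 46.5%. No SMC1 peak in any condition was found at 1592 senescent-only loci (57.9%, 56.0 to 59.7), against 29.0% of all CTCF loci and 12.05% of loci in all 3 lists. An SMC1 peak in all 3 conditions was found at 306 (11.1%), against 52.3% of the other loci with a senescent peak.

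**Figure D3:**
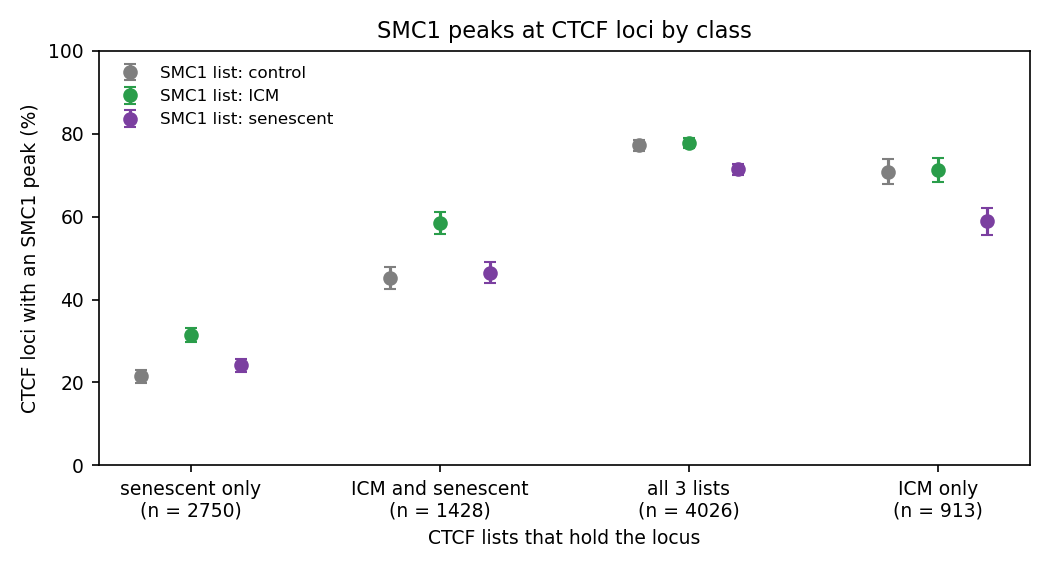
Points give the percentage of CTCF loci of each class with an overlapping SMC1 peak in the control (grey), ICM (green) and senescent (purple) SMC1 lists, with exact 95% intervals as bars. Senescent-only loci lie between 21.5% and 31.4%, and loci in all 3 lists between 71.4% and 77.8%.

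The order of the 3 SMC1 shares depended on list length. The SMC1 lists held 14883 control, 17809 ICM and 12927 senescent peaks. When each was limited to its 12927 peaks of highest total signal, the shares at senescent-only loci were 16.7%, 21.4% and 24.1%, so that the senescent list had the highest share rather than the ICM list. On complete lists 318 senescent-only loci had an SMC1 peak in senescent but not in control cells and 245 in control but not in senescent cells. At equal length these numbers were 365 and 162. At loci in all 3 CTCF lists they were 274 and 506 on complete lists and 360 and 417 at equal length. At loci of the ICM and senescent lists, the senescent SMC1 share minus the control share was 1.26 percentage points on complete lists and 6.44 at equal length, beside 2.65 and 7.38 for senescent-only loci.

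Part of the gap to other loci went with rank. In a 1 kb window on each summit, so that peak width played no role, a senescent SMC1 peak was found at 20% of senescent-only and 52.8% of other loci in the lowest band of total signal. Between percentiles 40 and 50 the shares were 23.3% and 48.0%, between 60 and 70 they were 46.0% and 56.9%, and between 70 and 80 they were 53.5% and 64.0%. Over the 8 bands with at least 20 senescent-only loci, the share at other loci was higher by a mean of 27.9 percentage points when bands were weighted by their number of senescent-only loci, and by 23.1 points when they were not. The SMC1 peaks at senescent-only loci were themselves low in their lists, with median percentiles of 33.2 (control list), 42.2 (ICM) and 38.5 (senescent), against 71.2, 75.9 and 73.0 at loci in all 3 CTCF lists. Where no SMC1 peak overlapped, the nearest one lay at a median of 41566 bp (control list), 36377 bp (ICM) and 40578 bp (senescent), and it was within 1 kb for 31, 33 and 34 loci.

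The combination of SMC1 lists varied with position. Of the senescent-only loci, 187 had SMC1 in senescent cells only, 250 in ICM-treated cells only, 131 in both of these and 177 in control and ICM-treated cells but not in senescent ones. Promoters made up 22.9% of the 306 loci with SMC1 in all 3 conditions, 14.1% of the 177, 6.42% of the 187, 6.00% of the 250 and 1.53% of the 131. They made up 20.5% of the 39 loci with SMC1 in control and senescent cells and 13.2% of the 68 with SMC1 in control cells only. Without SMC1 in any condition the promoter share was 7.41% of 1592 loci. By total signal, loci with SMC1 in senescent cells only had a median CTCF percentile of 33.4, and those without SMC1 had one of 23.3. By highest signal the median percentile was 32.4 in both groups.

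The senescent-only peaks of highest total signal show this range. The highest, chr12:152102-153634, lay inside IQSEC3, which encodes an exchange factor for ARF GTPases at synapses, 4142 bp from the 5′ end of IQSEC3-AS3. Its total signal was 22842 (percentile 89.5), and SMC1 was listed there in senescent cells only, at percentile 78.1 of that list. The second, chr3:13657386-13658647 inside the non-coding gene LINC00620, had a total of 21253 and likewise SMC1 in senescent cells only (percentile 74.2), with an ICM CTCF peak 5586 bp away. These were the 2 senescent-only loci that reached the lowest ICM total.

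The next 3 had no SMC1 peak in any condition. One at chr8:142545038-142546644 (total 17978) lay between genes, 29676 bp from MROH4P. Another at chr12:51992513-51993642 (total 17521) lay inside ACVR1B, which encodes an activin receptor, and 29578 bp from a 5′ end of NR4A1, an orphan nuclear receptor. The third at chr19:44799905-44800895 (total 17410) lay inside CBLC, a ubiquitin ligase gene, 8424 bp from BCAM, which encodes a laminin-binding adhesion protein.

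By highest signal the order differed. The tallest peak, chr2:148881726-148881852 inside KIF5C, a kinesin heavy chain gene, reached 213 but was only 127 bp wide, the narrowest of all senescent-only loci. It had SMC1 in all 3 conditions at percentiles 93.0, 99.7 and 99.5 of the control, ICM and senescent lists. An intergenic peak at chr13:48769179-48769603, 115377 bp from CYSLTR2 (a leukotriene receptor), reached 79 and had SMC1 at percentiles 63.8, 91.8 and 15.2. A peak at chr8:9830840-9832007 also reached 79 with no SMC1, and lay 1148 bp from an ICM CTCF peak. The peak at chr15:64905182-64906353, 6274 bp from ANKDD1A, had SMC1 at percentiles 46.5, 64.6 and 55.4. SMC1 in control and ICM-treated but not in senescent cells was seen at chrX:53071388-53072142 inside GPR173 (an orphan receptor), at percentiles 10.3 and 63.3, and at chr7:56004536-56005382, 40405 bp from NIPSNAP2, at 40.6 and 9.35.

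A protein-coding promoter held 184 senescent-only loci (6.69%). The highest by total signal was chr15:77820143-77822091, 720 bp from a 5′ end of LINGO1, a regulator of myelination and axon growth, with a total of 14391 and SMC1 in senescent cells only at percentile 3.81. CXXC1 followed at chr18:50287100-50288259 (total 14314), with its core printed above and SMC1 at percentiles 68.3, 59.3 and 60.05. FMO4 (chr1:171313682-171314262, total 14073) had SMC1 at 36.3, 46.5 and 14.9. CHRNE, the epsilon subunit of the muscle acetylcholine receptor (chr17:4902462-4904003, total 13323), and TMEM106C (chr12:47962820-47963814, total 12427) had no SMC1 peak.

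Most senescent-only loci stood alone. Another one lay within 50 kb of 756 (27.5%, 25.8 to 29.2), close to the 26.6% of all CTCF loci with a senescent-only locus within that distance, and within 10 kb of 239 (8.69%). The share within 50 kb moved with list length. It was 10.5% or 12.6% among the 916 or 1073 loci that were senescent-only in CTCF lists of equal length. Loci in all 3 lists lay near each other more often, with 46.6% within 50 kb of another of their class, which is a larger class. Linking loci up to 50 kb apart gave 2339 runs, of which 1994 were a single locus, 292 were pairs and 53 held at least 3, with 172 loci in those 53. The 2 largest runs held 5.

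The shorter of them spanned 38.2 kb at chr1:201348036-201386186, over TNNT2 (cardiac troponin T) and LAD1 (ladinin, a basement membrane anchoring protein). No locus of another class lay in it. Its 5 peaks ranked at percentiles 46.2, 48.4, 21.04, 4.38 and 48.3 from left to right. The third lay 678 bp from a 5′ end of TNNT2. SMC1 was listed at the second in ICM-treated cells and at the fourth, inside LAD1, in all 3 conditions, and at no other of the 5.

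**Figure D4:**
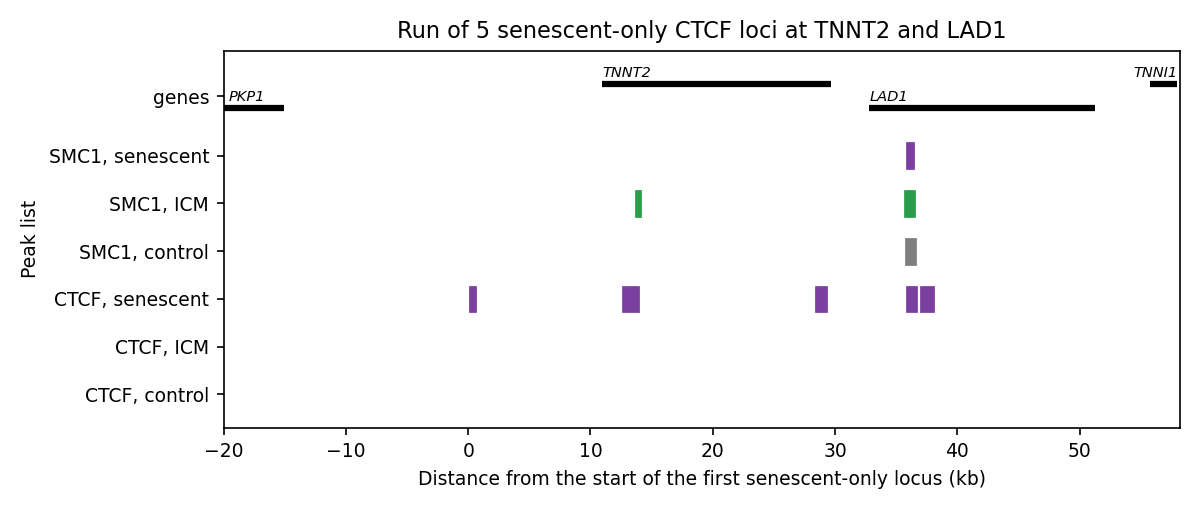
Blocks mark listed peaks of each CTCF and SMC1 list (vertical axis) by distance in kb from the start of the first senescent-only locus of the run, with grey for control, green for ICM and purple for senescent, and black bars for protein-coding genes. All 5 CTCF peaks are in the senescent list, the last 2 lie close together, and SMC1 peaks stand at the second (ICM) and the fourth (all 3 conditions).

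A second run of 5 at chr22:37567072-37697005 spanned 129.9 kb and 7 protein-coding genes, among them CDC42EP1, a CDC42 effector, and LGALS1, which encodes galectin-1. It also held 6 CTCF loci of other classes, of which 4 were in all 3 lists. Its peaks ranked at percentiles 3.21, 29.6, 23.6, 32.2 and 9.85. The shortest run of 4, at chr1:67500327-67562379, spanned 62.1 kb with no CTCF locus of another class and no SMC1 peak at any of the 4, whose percentiles were 60.5, 36.6, 40.5 and 0.735. The last of them lay 176 bp from the 5′ end of LOC105378780.

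Of 19974 protein-coding genes, 1369 (6.85%) held a senescent-only locus in their span or within 1 kb of it. The share followed gene length, from 2.81% of genes up to 10 kb to 16.5% of genes over 300 kb, whereas for loci in all 3 lists it was 10.8% and 15.2%. The most were 4 in each of PALD1, GSE1, KAZN and GPHN. PALD1 spans 110.0 kb and had no locus of all 3 lists. Its 4 peaks ranked at percentiles 34.1, 46.1, 33.1 and 63.0, with SMC1 in senescent cells at the first, none at the second, ICM at the third and control and ICM at the last. GSE1, a chromatin-associated protein gene of 506.7 kb, also had 5 loci of all 3 lists. KAZN (kazrin, a desmosomal protein) and GPHN (gephyrin, an inhibitory synapse scaffold) span 1225 and 1227 kb. SHANK1, a postsynaptic scaffold gene of 60.5 kb, had 3, of which the first lay beyond its span and 239 bp from a 5′ end of SYT3 (synaptotagmin), with SMC1 in all 3 conditions.

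Lists of genes tied to senescence and to chromatin were set beside all protein-coding genes, of which 6.85% held a senescent-only locus. Of 51 genes for secreted factors of senescent cells, 0 held one. A count of 0 allows 3 of 51, a share of up to 5.88%, with an exact upper limit of 6.98%, and genes of matching length held one in 5.33% of cases. Of 59 fibroblast extracellular matrix genes, 3 did (5.08%, length-matched 9.46%). These were the collagen genes COL16A1 and COL5A1 and BGN (biglycan), whose peak lay 208 bp from the 5′ end. Of 57 cell cycle and DNA replication genes, 2 did (3.51%, length-matched 6.64%), namely CDC25C, a mitotic phosphatase with the peak 84 bp from its 5′ end, and CDC6, a replication licensing factor. Of 29 p53 and RB arrest genes only FDXR (ferredoxin reductase, a p53 target) did, with a length-matched share of 5.75%.

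Of 43 genes for HMG, lamina and heterochromatin proteins, 2 held a senescent-only locus (4.65%, length-matched 6.86%). DNMT3B, a de novo DNA methyltransferase, had 2 of them, at percentiles 61.7 and 47.4, and TMPO, which encodes lamina-associated polypeptides, had one 79 bp from its 5′ end at percentile 8.35. Of 28 CTCF and cohesin machinery genes, CTCFL, the germline paralogue of CTCF, and MAZ, a zinc-finger factor, each had 1 (7.14%, length-matched 8.71%). Of 26 AP-1 and immediate early genes ATF2 had 1 (3.85%, length-matched 4.50%), at percentile 0.216. Of 57 TGF-beta, WNT and growth factor signalling genes, TCF7L1, ROR2, FLT1 and ERBB2 had 1 each (7.02%, length-matched 9.69%), all within the gene and at percentiles 43.0, 30.5, 29.9 and 24.97. In all 8 lists the length-matched share lay within the exact interval of the list.

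By chromosome, senescent-only loci made up between 23.9% (chromosome 13) and 33.7% (chromosome 21) of CTCF loci, except on chromosome 18. There they were 46 of 103 loci (44.7%, 34.9 to 54.8), against 28.1% (27.2 to 29.0) on the other chromosomes, and chromosome 18 was singled out after its values were seen. The 3 CTCF lists held 28 control, 53 ICM and 85 senescent peaks there, a senescent to control ratio of 3.04, whereas the other chromosomes ranged from 1.48 to 2.09. SMC1 peaks on it numbered 221, 272 and 183, a ratio of 0.828. The 46 loci had a median percentile of 20.1, and 25 (54.3%) had no SMC1 peak. Without chromosome 18 the senescent-only loci numbered 2704.

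**Figure D5:**
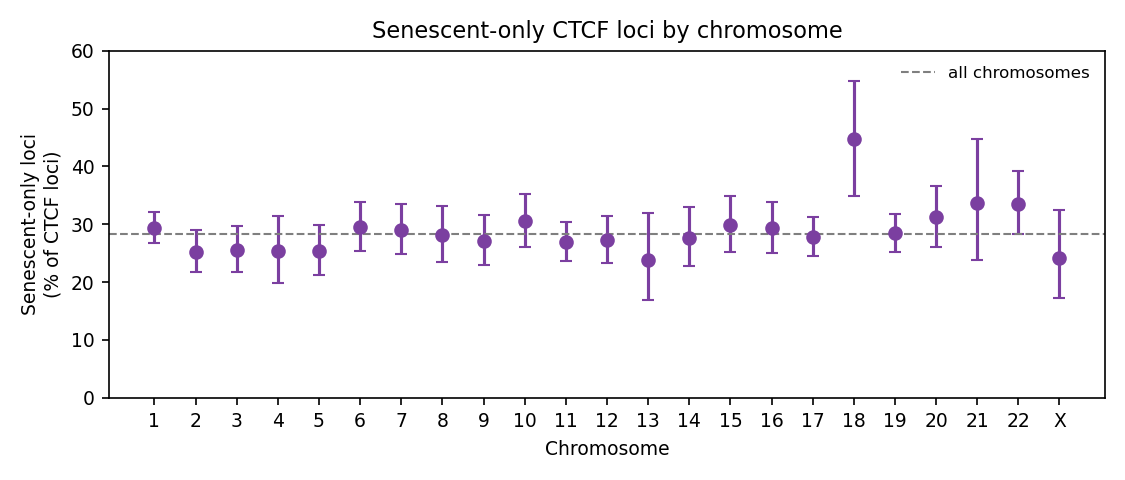
Points give senescent-only loci as a percentage of all CTCF loci on each chromosome, with exact 95% intervals as bars, and the dashed line is the share over all chromosomes (28.3%). Chromosome 18 stands highest at 44.7%, and the others lie between 23.9% and 33.7%.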

How the data were processed

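The study's methods state that reads were aligned to hg38 with Bowtie2 (2.3.4.1 in the submitters' processing notes, which also name Picard 2.20.7 and SEACR 1.3). E. coli DNA served as spike-in, and peaks were called in each library separately in the stringent SEACR mode, keeping the top 1% of regions. The lists deposited by the authors give position, total signal and highest signal. Signal was a whole number throughout, its scale between lists is unknown, and it was used only for ranks within a list, except for the lowest totals. The methods give only a minimum number of reads, so the depth of each library is unknown here. The mitochondrial peak of each list was left out.

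Peaks were merged and ranked with pandas 2.3.3 in Python 3.11.15, and exact (Clopper-Pearson) intervals came from scipy 1.17.1. Scripts were checked on simulated peaks. The 5′ ends were those of 34961 RefSeq promoter windows (GRCh38.p14). On chromosome 8 the outermost 5′ end of the RefSeq gene was used, with strand by symbol from GENCODE v44 (1406 of 2448 genes). Length-matched shares are the mean share of all genes of the same length bands. Named loci were the 5 of highest total and of highest signal, the 5 highest protein-coding promoters, the 2 highest in each main SMC1 pattern, the 3 runs with most loci (the shorter first where tied), the 5 genes with most loci, list genes and the loci nearest the edge of the rule. The members, lists and rules were chosen with earlier results of these data known. Alternatives were other overlap rules, equal list lengths, promoter distances, rank measures, linking distances and omission of chromosome 18. Peak sequences outside promoter windows were not analysed here.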

Additional observations from a re-analysis of the deposited data

How the results depend on the processing

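Of 58 recomputed values, 30 stayed within their counting interval (or, for the number of loci and the rank-averaged SMC1 difference, within 1.5 times) and 28 moved beyond that, and the cause was not tested. Values are given in the order number of loci, promoter share, SMC1 share in senescent, control and ICM lists, median percentile and share with another senescent-only locus within 50 kb. Limiting the CTCF lists to equal length by total signal gave 916, 6.99%, 37.7%, 31.8%, 46.0%, 56.7 and 10.5%, and by highest signal 1073, 6.06%, 28.4%, 24.8%, 39.8%, 42.7 and 12.6%. Joining 100 bp summit windows moved the promoter share to 16.7%, the senescent and ICM SMC1 shares to 21.3% and 29.4%, the percentile to 28.9, the 50 kb share to 34.3% and the rank-averaged SMC1 difference to 17.8 points. Requiring no other peak within 5 kb gave a 50 kb share of 24.0%. Promoters taken as 2.5 kb gave 14.2%, and protein-coding promoters alone 6.69%. Ranking by highest signal gave 35.2. Linking at 10 kb gave 8.69% and at 200 kb 60.6%. SMC1 lists of equal length gave 16.7% in control and 21.4% in ICM-treated cells. The 1 kb summit window and the omission of chromosome 18, both chosen after seeing the data, moved no value beyond these limits. The rank-averaged SMC1 difference was also added after seeing the data. No paired analysis was possible because each group had 1 library and the labels carry no replicate numbers. With unknown depth and no replicates, a peak missing from a list cannot be told from one under its threshold.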
